A study of Mus musculus with 18 samples.

Results

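The 10 genes described here are *Igf1*, its receptor gene *Igf1r*, the acid-labile subunit gene *Igfals* and the 7 IGF binding protein genes *Igfbp1* to *Igfbp7*. They were picked out by symbol, from a list set with earlier results of these data known. Each was found once among the 21959 genes of the MEF (fibroblast) table and once among the 51826 genes of the liver table. RNA-seq of 12 mouse libraries was analysed, with 3 RepB-/- and 3 WT libraries of each material. RepB-/- mice lack repeat B of *Xist* on both alleles, a deletion made by CRISPR/Cas9 in zygotes and carried by every cell, and WT mice carry none. The fibroblasts are labelled as primary MEFs with tail as their tissue, so embryonic and tail origin cannot be told apart from the labels. Genotype was read from the letters B and W in the library titles. The labels give no age, sex or strain. The study's methods name ICR as the mouse stock bought and its text uses RepB-/- for homozygous females, without tying either to single libraries. Neither source says whether replicates came from separate animals or cultures, so that p-values measure the spread between libraries, which may be technical.

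IGF1 is a growth hormone-induced peptide that circulates mainly from the liver and signals through the receptor tyrosine kinase IGF1R. IGF binding proteins carry IGF1 and IGF2, lengthen their half-life, and withhold them from or deliver them to the receptor, and most of the circulating peptide sits in a ternary complex with IGFBP3 or IGFBP5 and the acid-labile subunit. In liver, *Igf1* and *Igfals* rise after birth with growth hormone signalling, whereas *Igfbp1* is induced by fasting and repressed by insulin.

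Depth was 11540344 to 20587556 counts per MEF library, higher in all RepB-/- than in all WT libraries, and 37682201 to 51542709 per liver library. Values are CPM (counts scaled to library size, here with TMM normalization), unless given as the authors' length-scaled FPKM (MEFs) or TPM (liver). In each material, a gene was called at an adjusted p under 0.05 in the quasi-likelihood test of edgeR. The p-values were adjusted over all genes tested by the Benjamini-Hochberg method. Log2 fold changes are given with an SE, computed as their absolute value over the square root of the F statistic of that test. *Xist* had 14494 to 26345 counts in 5 liver libraries and 4 in the library labelled RepB-/- replicate 2. In that library 4 Y-linked genes summed to 87.2 CPM, against 0 in RepB-/- replicate 1 and in all WT livers. Y-linked counts with nearly no *Xist* are unlike a female, for which the study uses RepB-/-. Sex may therefore differ among the RepB-/- livers, and its part in the member values was not tested. Gene-level counts do not test the deletion of repeat B, and *Xist* was not analysed here in MEFs. Both liver libraries numbered replicate 1 stood apart from the other 4 libraries. All 8 fetal liver markers tested were higher in them, including *Afp* (log2 fold change 6.50) and *H19* (10.95), and 5 of 10 mature liver markers were lower, including *Mup3* (-12.86). Hepatocyte markers summed to 112261 to 189075 CPM in all 6 livers, and to at most 2.65 CPM in MEFs, where fibroblast markers summed to 12918 to 22019 CPM.

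In MEFs, 4 of the 7 binding protein genes, *Igfbp3*, *Igfbp4*, *Igfbp5* and *Igfbp6*, were higher in RepB-/- than in WT cells. The rises were 2.43-fold, 2.42-fold, 2.36-fold and 1.68-fold. *Igf1* and *Igf1r* did not pass the test. Of the 10 members, 8 passed the filter on low counts, 4 were called higher and 0 lower. Among all 13306 genes tested, 39.1% were called, 19.4% higher and 19.7% lower, so that a called gene was common in this comparison and the count of members is not read as particular to them. The median log2 fold change of the 8 tested members was 0.55, against 0.00030 over all genes tested.

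*Igf1* itself was barely expressed by these fibroblasts, at 4.29, 5.33 and 3.24 CPM in RepB-/- replicates 1 to 3 and 3.43, 4.30 and 2.29 CPM in WT replicates 1 to 3. The groups overlapped, and the log2 fold change was 0.32 ± 0.27 (SE, edgeR adjusted p = 0.367). Its receptor was well expressed, with *Igf1r* at 183, 182 and 160.2 CPM in RepB-/- and 152, 166 and 171 CPM in WT. These groups also overlapped, with a log2 fold change of 0.067 ± 0.075 (SE, adjusted p = 0.509). *Igfals*, whose product completes the circulating ternary complex, had 0 to 9 counts per library, and *Igfbp1* had 0 in all 6, where 3 counts would be 0.154 to 0.234 CPM. Both were below the filter.

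*Igfbp4*, which encodes an inhibitory binding protein cleaved by the protease PAPP-A, was the member with the most reads. It stood at 1628, 1480 and 1227 CPM in RepB-/- replicates 1 to 3 and at 531, 619 and 593 CPM in WT. The lowest RepB-/- library was above the highest WT library, and the log2 fold change was 1.28 ± 0.10 (SE, adjusted p = 1.27e-06). *Igfbp3* encodes the main carrier of IGF in blood and an abundant fibroblast product. It was at 143, 130 and 107 CPM in RepB-/- and 49.6, 46.6 and 55.6 CPM in WT, again without overlap. Its log2 fold change was 1.28 ± 0.10 (SE, adjusted p = 1.69e-06). Their promoters are shown because both genes rose by a similar amount while lying far apart on 1 chromosome, *Igfbp4* at chr11:99041244-99054392 on the plus strand and *Igfbp3* at chr11:7206086-7213923 on the minus strand (GRCm38). The 140 bases before each RefSeq start (GRCm38.p6) follow 5′ to 3′, at chr11:99041104-99041243 and chr11:7213924-7214063, with TATA-like letters in capitals.
Igfbp4: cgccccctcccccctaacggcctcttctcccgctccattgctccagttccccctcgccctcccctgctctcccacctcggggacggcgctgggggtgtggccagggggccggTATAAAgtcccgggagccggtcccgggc
Igfbp3: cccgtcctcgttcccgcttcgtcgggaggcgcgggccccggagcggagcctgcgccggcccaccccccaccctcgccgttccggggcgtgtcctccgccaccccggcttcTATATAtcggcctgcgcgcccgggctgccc
The capitals are TATAAA at -28 in *Igfbp4* and TATATA at -30 in *Igfbp3*, counted back from the start. TATAAA was found on either strand in 12.4% and TATATA in 5.25% of 32851 RefSeq windows of 250 bases before a start. The other 4 patterns searched on both strands were the forkhead pattern CAAAACA, the GC box GGGCGG, the STAT pattern TTCNNNGAA and the box CCAAT. None of them was in the 250 bases before either gene. *Igfbp5* rose by a similar amount (log2 fold change 1.24), and none of the patterns searched was found in the 250 bases before it. Whether any pattern bears on a rise was not tested.

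*Igfbp5*, which encodes a matrix-bound binding protein made by mesenchymal cells, varied most among RepB-/- libraries. It was at 196, 131 and 63.8 CPM there and at 47.4, 53.3 and 59.8 CPM in WT. RepB-/- replicate 3 was only just above WT replicate 3, and on the authors' FPKM scale it lay at 10.04, within the WT range of 8.77 to 10.36. The log2 fold change was 1.24 ± 0.27 (SE, adjusted p = 0.00257). *Igfbp6*, whose product prefers IGF2 over IGF1, was more even, at 70.4, 69.7 and 78.7 CPM in RepB-/- and 36.8, 50.1 and 39.4 CPM in WT. These groups did not overlap, and the log2 fold change was 0.75 ± 0.10 (SE, adjusted p = 1.08e-04). Of all genes tested, 30.1% had all 3 RepB-/- libraries above all WT libraries.

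*Igfbp2*, which encodes a major fetal and serum binding protein, was at 578, 488 and 354 CPM in RepB-/- and 394, 358 and 333 CPM in WT. RepB-/- replicate 3 lay within the WT range, and the log2 fold change of 0.35 ± 0.14 (SE) did not pass the test (adjusted p = 0.0553). Without RepB-/- replicate 3 it was 0.53 (adjusted p = 0.00232), and without WT replicate 1 it was 0.43 (adjusted p = 0.00845). Without any 1 of the other 4 libraries it was not called, at 0.19 to 0.34 with adjusted p-values of 0.110 to 0.285. *Igfbp7*, a low-affinity binding protein gene and the member with the highest FPKM, was at 529, 521 and 528 CPM in RepB-/- and 402, 531 and 517 CPM in WT. WT replicate 1, the library of lowest depth, was lowest and the others overlapped, with a log2 fold change of 0.083 ± 0.091 (SE, adjusted p = 0.494). *Igfbp7* overlaps *Polr2b* on the opposite strand and *Igf1* overlaps the antisense gene *Igf1os*. Whether counting used strand is not stated, so that reads of such pairs may not be told apart.

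**Figure D1:**
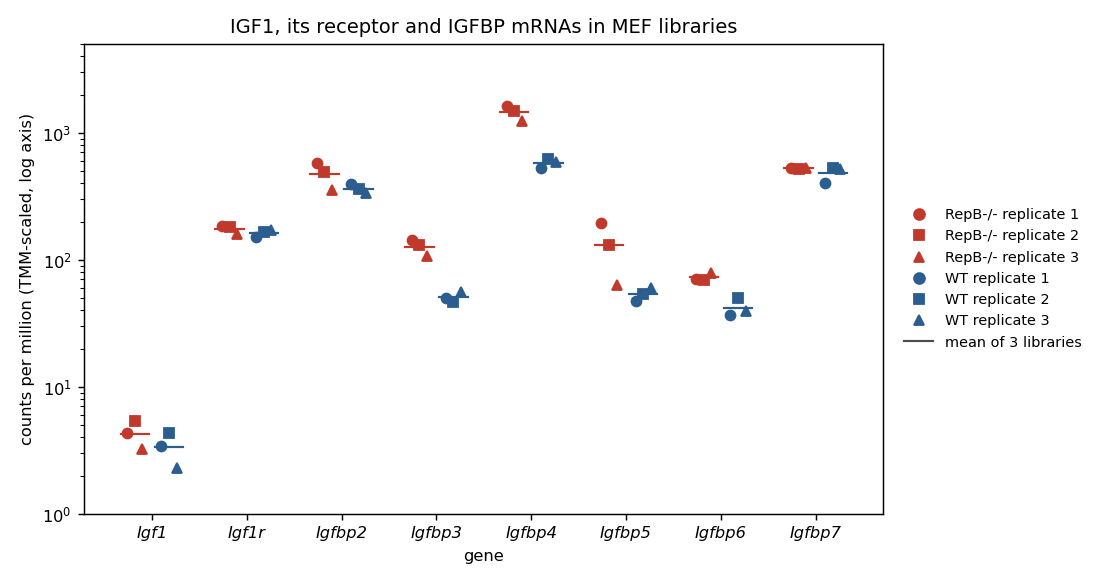
TMM-scaled CPM (log axis) of the 8 members that passed the filter in MEFs, for each RepB-/- (red) and WT (blue) library, with marker shape for the replicate number and a bar for the mean of 3 libraries. The RepB-/- points of Igfbp3, Igfbp4, Igfbp5 and Igfbp6 all lie above the WT points, while those of Igf1, Igf1r, Igfbp2 and Igfbp7 overlap.

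Fibroblast markers moved with genotype beside these genes. Of 10 markers, 9 were tested, 4 were higher and 1 was lower in RepB-/-, and their summed level was 19848 to 22019 CPM in RepB-/- and 12918 to 17438 CPM in WT. The 8 stellate and mesenchymal markers, which share genes with that list, summed to 10024 to 11805 CPM in RepB-/- and 5885 to 8114 CPM in WT. Other lists moved too. Keratinocyte markers summed to 6.94 to 13.1 CPM in RepB-/- and 4.60 to 5.88 CPM in WT, with *Krt14* called higher, myogenic markers to 24.6 to 29.5 and 20.6 to 23.2 CPM, and Kupffer cell markers to 3.55 to 4.34 and 1.40 to 1.84 CPM. Endothelial markers summed to 156 to 163 and 125 to 154 CPM, although *Pecam1*, *Kdr* and *Cdh5* were called lower and *Tek* and *Eng* higher. Cholangiocyte markers overlapped, at 776 to 1131 and 1000.2 to 1149 CPM, with *Krt19* called lower. The part of these lists, or of depth, in the rise of the binding protein genes was not tested. In bulk libraries, fewer cells of a type and less RNA per cell cannot be told apart.

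Per length, the binding protein mRNAs together reached 965 to 1191 FPKM in RepB-/- and 804 to 852 FPKM in WT MEFs, without overlap. Their order also differed. *Igfbp7* was first in every library, at 413 ± 0.817 FPKM in RepB-/- and 420 ± 43.4 FPKM in WT (mean ± SD, n = 3). *Igfbp2* came second in each WT library (187 to 237 FPKM), above *Igfbp4* (134 to 142 FPKM). In each RepB-/- library *Igfbp4* came second (262 to 348 FPKM), above *Igfbp2* (181 to 296 FPKM), although the ranges of the pair overlapped there. *Igfbp6*, *Igfbp3* and *Igfbp5* followed in that order in both genotypes, at means of 62.2, 38.3 and 20.6 FPKM in RepB-/- and 39.7, 17.1 and 9.37 FPKM in WT. *Igf1r*, at means of 9.90 and 10.2 FPKM, overlapped *Igfbp5* in both genotypes, and *Igf1* was last of the tested members, at 0.411 and 0.355 FPKM. Of the summed binding protein level, *Igfbp4* was 28.5% ± 1.11 in RepB-/- and 16.6% ± 0.0136 in WT (mean ± SD, n = 3), and *Igfbp7* was 38.2% ± 4.09 and 50.4% ± 3.88.

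The other genes of the pathway came from lists of 68 ligands, receptors, signalling components and IGFBP-cleaving or IGFBP-like proteins. The last list also holds the stanniocalcin genes *Stc1* and *Stc2*, which do not encode proteases. In MEFs, 60 were tested, 19 were higher and 13 lower in RepB-/-, beside the 19.4% higher and 19.7% lower among all genes tested. The IGFBP protease and IGFBP-like list had 10 of 18 tested genes higher and 1 lower, with a median log2 fold change of 0.35 against 0.00030 over all genes. *Adamts1*, a secreted metalloprotease gene, was at 494, 471 and 458 CPM in RepB-/- and 175, 216 and 214 CPM in WT, a log2 fold change of 1.19. Also higher were *Ccn3* (1.08) and *Ccn5* (0.86), which encode matricellular proteins with an IGFBP-like domain, the serine protease gene *Htra1* (0.80) and *Stc1* (0.72), a stanniocalcin gene. Lower genes were led by *Cish* (-1.34), which encodes a feedback inhibitor of cytokine receptors, and *Igf2bp1* (-1.16), an mRNA-binding protein gene. The prolactin receptor gene *Prlr* (-1.15, edgeR adjusted p = 0.0478) and *Esm1* (-1.08) followed. *Cish*, *Prlr* and *Esm1* were low, at no more than 4.21, 2.34 and 5.59 CPM in any MEF library. *Igf2bp1* was at 28.6, 12.9 and 14.7 CPM in WT replicates 1 to 3. In RepB-/- it was at 8.48 to 8.57 CPM. *Socs2*, which encodes an inhibitor of growth hormone receptor signalling, fell from 95.4, 88.6 and 87.8 CPM in WT to 55.7, 61.5 and 58.1 CPM in RepB-/- (log2 fold change -0.67, adjusted p = 2.73e-05). Among the other receptors, *Insr* was higher (0.28 ± 0.076 SE, adjusted p = 0.0107), while *Igf2r* (0.11, adjusted p = 0.226) and *Ghr* (-0.091, adjusted p = 0.475) did not pass the test. *Igf2* was at 0.184 to 0.627 CPM and was below the filter.

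In liver, the replicate 1 libraries stood apart in most members, so the values of each gene are given by number first. The numbers are in the labels, but the split was set with earlier results of these 6 libraries known, and its p-values describe these libraries. Between both replicate 1 libraries and the other 4, with genotype in the model, 5 members were called higher and 1 lower. Of all 17030 genes tested, 15.6% were called, 8.76% higher and 6.82% lower. The median log2 fold change of the 10 members was 1.02, against 0.0027 over all genes tested.

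*Igf1* was lower in both replicate 1 livers, at 373 CPM in RepB-/- and 232 CPM in WT. Replicates 2 and 3 were at 824 and 1049.9 CPM in RepB-/- and 733 and 853 CPM in WT. No library overlapped, and replicate 1 was 2.99-fold lower (log2 fold change -1.58 ± 0.25 SE, adjusted p = 0.0132). *Igfals* followed at 134 and 111 CPM in RepB-/- and WT replicate 1, against 223 and 169 CPM in RepB-/- and 322 and 285 CPM in WT replicates 2 and 3. The groups did not overlap in CPM, but the log2 fold change of -1.01 ± 0.28 (SE) missed the threshold (adjusted p = 0.0559), and in TPM RepB-/- replicate 3 (95.5) lay below both replicate 1 libraries. *Igf1r* was low throughout, at 7.15 and 4.67 CPM in RepB-/- and WT replicate 1 and 1.92 to 2.28 CPM in the other 4. It was 2.62-fold higher in replicate 1 (log2 fold change 1.39 ± 0.26 SE, adjusted p = 0.0205).

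*Igfbp1* and *Igfbp2* differed most. *Igfbp1*, whose product is the acutely regulated liver binding protein, was at 2170 and 1377 CPM in RepB-/- and WT replicate 1. Replicates 2 and 3 were at 145 and 63.5 CPM in RepB-/- and 21.3 and 25.0 CPM in WT. Replicate 1 was 36.1-fold higher (log2 fold change 5.17 ± 0.47 SE, adjusted p = 0.00315). *Igfbp2* was at 2516 and 2169 CPM in RepB-/- and WT replicate 1, and at 195 and 136 CPM in RepB-/- and 160 and 76.0 CPM in WT replicates 2 and 3. It was 16.4-fold higher in replicate 1 (log2 fold change 4.03 ± 0.34 SE, adjusted p = 0.00268). Neither gene overlapped between the sets. Their upstream sequences are shown because these were the members with the largest differences, and they hold different letters. *Igfbp1* (chr11:7197782-7202546, plus strand) lies tail to tail with *Igfbp3*, 3539 bases away with 0 genes between, and *Igfbp2* (chr1:72824503-72852474, plus strand) lies tail to tail with *Igfbp5*, 5457 bases away. The 140 bases at chr11:7197642-7197781 for *Igfbp1* (-145 to -6 from its RefSeq start) and chr1:72824340-72824479 for *Igfbp2* (-140 to -1) follow 5′ to 3′.
Igfbp1: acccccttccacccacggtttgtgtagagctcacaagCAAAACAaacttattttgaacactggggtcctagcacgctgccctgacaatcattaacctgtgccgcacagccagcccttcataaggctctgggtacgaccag
Igfbp2: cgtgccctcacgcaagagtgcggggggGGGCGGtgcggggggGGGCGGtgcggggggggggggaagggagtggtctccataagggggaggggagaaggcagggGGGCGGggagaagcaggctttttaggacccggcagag
The capitals are CAAAACA at -108 in *Igfbp1*, a core of the insulin response element for which this promoter is known and which forkhead FOXO factors bind, and GGGCGG, the GC box, at -113, -98 and -37 in *Igfbp2*. CAAAACA was found in 5.56% and GGGCGG in 32.7% of the 32851 windows, on either strand. Among the members, GGGCGG was also before *Igf1r*, *Igfals* and *Igfbp7*. The windows of the 9 members other than *Igfbp1* held no CAAAACA. TTCNNNGAA, the letters of a STAT site, was found in 7.02% of windows and, among the members, in 2 of the 3 windows of *Igfals*. It was not in the window of *Igf1*. Whether any pattern bears on a difference between these libraries was not tested.

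*Igfbp3* and *Igfbp7* differed less. *Igfbp3* was at 149 and 127 CPM in RepB-/- and WT replicate 1 and between 57.8 and 67.1 CPM in the other 4, without overlap (log2 fold change 1.11 ± 0.17 SE, adjusted p = 0.0116). *Igfbp7* was at 187 and 171 CPM in RepB-/- and WT replicate 1, at 123 and 84.5 CPM in RepB-/- replicates 2 and 3, and at 76.5 and 84.4 CPM in WT (log2 fold change 0.94 ± 0.20 SE, adjusted p = 0.0274). It did not overlap either. Of all genes tested, 25.0% had replicate 1 above and 19.5% below all the other libraries.

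*Igfbp4* was nearly level, at 2086 and 1742 CPM in RepB-/- and WT replicate 1 and 1247 to 1849 CPM in the other 4 (log2 fold change 0.30 ± 0.21 SE, adjusted p = 0.368). The sets overlapped in CPM and not in TPM, where replicate 1 was at 1150 and 1083 and the others at 613 to 937. *Igfbp6* had 66 and 117 counts in RepB-/- and WT replicate 1, and 33, 2, 41 and 4 in the others. The sets did not overlap, but the 4.01-fold difference did not pass the test (adjusted p = 0.221). *Igfbp5* did not follow the replicate number (log2 fold change 0.72 ± 0.44 SE, adjusted p = 0.302).

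**Figure D2:**
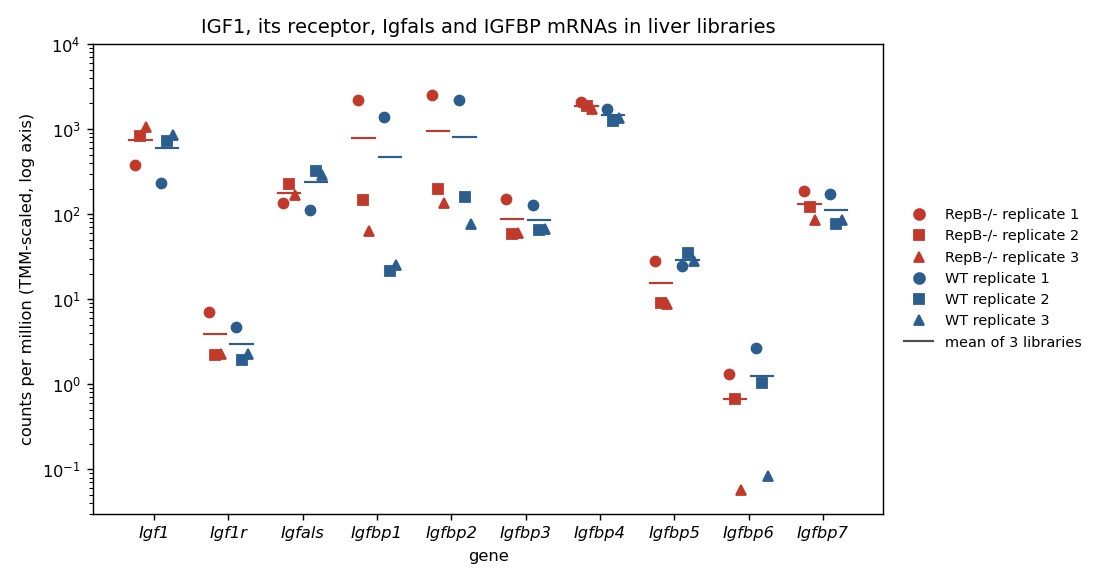
TMM-scaled CPM (log axis) of the 10 members in liver, for each RepB-/- (red) and WT (blue) library, with marker shape for the replicate number and a bar for the mean of 3 libraries. Circles (replicate 1) lie apart from squares and triangles for Igf1 (below) and for Igfbp1 and Igfbp2 (above), whereas Igfbp4 is level.

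Leaving out libraries changed how many members were called. Calls over all genes moved too, from 401 to 2711 over the 6 fits, against 2652 with every library. The counts of members are therefore not read as particular to them. Without RepB-/- replicate 1, 2 members were called, *Igfbp1* and *Igfbp2*. Without WT replicate 1, 3 were called, *Igfbp1*, *Igfbp2* and *Igfbp5* (log2 fold change 1.60, adjusted p = 0.0454). Without WT replicate 3, 3 were called, *Igfbp1*, *Igfbp2* and *Igfbp3*, and *Igf1* was at -1.52 (adjusted p = 0.0507). Without the library with Y-linked counts, RepB-/- replicate 2, 5 were called higher and 1 lower, with *Igf1* at -1.70 and *Igfbp1* at 5.51. Only *Igfbp1* and *Igfbp2* were called under all 11 alternatives, with log2 fold changes of 4.35 to 5.85 and 3.81 to 4.29.

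Marker lists moved with the replicate number beside these genes. The 8 fetal liver markers, which include *Igf2*, summed to 5001 to 6279 CPM in replicate 1 and 26.2 to 59.4 CPM in replicates 2 and 3, and none was at 0 in every library. The 10 mature liver markers summed to 7054 to 8051 CPM and 16128 to 21617 CPM. Fibroblast markers, of which 7 of 10 were higher and 0 lower, summed to 951 to 1421 CPM and 271 to 495 CPM. Erythroid markers, of which 6 of 8 tested were higher and 0 lower, summed to 1644 to 4557 CPM and 258 to 2274 CPM. Endothelial markers summed to 488 to 511 CPM and 317 to 403 CPM. Stellate and mesenchymal markers summed to 915 to 1308 CPM and 300 to 482 CPM, and cholangiocyte markers to 57.9 to 74.8 CPM and 40.5 to 55.0 CPM. Kupffer cell markers overlapped, at 355 to 935 CPM and 385 to 467 CPM. Hepatocyte markers overlapped too, at 112261 to 154006 CPM and 123178 to 189075 CPM. The part of cell make-up or stage in the member values was not tested, and the labels give no age.

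Between RepB-/- and WT livers, 0 of the 10 members were called by edgeR, and 0 had an unadjusted p under 0.05. DESeq2 gave an adjusted p to 8 of them and called 0. Of all 16080 genes tested, 0.0373% were called. All adjusted p-values of members were 1.00, and all 10 overlapped between genotypes, whereas 3.46% of all genes lay higher and 4.75% lower in RepB-/- without overlap. The biological coefficient of variation was 51.2% in this fit, against 9.06% in MEFs and 33.6% in the liver fit with the replicate term. The SE of the members' log2 fold changes ran from 0.31 to 1.86. *Igf1* was at 749 ± 344 CPM in RepB-/- and 606 ± 329 CPM in WT (mean ± SD, n = 3), a log2 fold change of 0.31 ± 0.60 (SE). For *Igfals* it was -0.45 ± 0.44, for *Igf1r* 0.39 ± 0.61, for *Igfbp2* 0.24 ± 1.53, for *Igfbp3* 0.039 ± 0.46 and for *Igfbp7* 0.25 ± 0.42.

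Because replicate 1 of both genotypes stood apart from the rest, the ratio of RepB-/- to WT was also read within each number. For *Igf1* the log2 ratio was 0.69, 0.17 and 0.30 for numbers 1, 2 and 3, and for *Igfbp4* it was 0.26, 0.57 and 0.35. For *Igfbp2* it was 0.21, 0.29 and 0.84. These 3 genes, *Igfbp1* and *Igfbp7* were higher in the RepB-/- library of every number, and no test called any of them. *Igfbp7* differed by only 0.0015 in number 3. The data do not separate numbers 2 and 3, so matching them by number is arbitrary. With the match swapped, *Igf1* was lower in RepB-/- replicate 2 (824 CPM) than in WT replicate 3 (853 CPM). *Igfbp2* was then lower in RepB-/- replicate 3 (136 CPM) than in WT replicate 2 (160 CPM). *Igfbp1*, *Igfbp4* and *Igfbp7* stayed higher. The share of all genes with 1 sign in every number was not computed. *Igfbp6* was lower in RepB-/- in numbers 1 and 2, at 1.32 against 2.64 and 0.663 against 1.05 CPM, and was not called either. In number 3 it had 2 counts in RepB-/- and 4 in WT, too few for a ratio. *Igfbp1* had log2 ratios of 0.66, 2.76 and 1.34, and among replicates 2 and 3 alone its log2 fold change was 2.17 ± 0.41 (SE, adjusted p = 0.217). *Igfbp5* was level in number 1, at 28.0 CPM in RepB-/- and 24.6 CPM in WT. In numbers 2 and 3 it was at 9.14 and 8.77 CPM in RepB-/- and 34.6 and 28.3 CPM in WT. The log2 ratios were 0.19, -1.92 and -1.69, and among replicates 2 and 3 alone the log2 fold change was -1.81 ± 0.21 (SE, adjusted p = 0.0989). In that fit, which was added after seeing the data, 2 of all genes were called. *Igfbp3* changed sign across numbers, at 0.23, -0.17 and -0.17. RepB-/- replicate 2 was among those lower in *Igfbp5* and was the highest in *Igfbp1* of replicates 2 and 3. Without it and with a term for replicate 1, *Igfbp1* was at 1.14 ± 0.26 (SE, adjusted p = 0.530) and *Igfbp5* at -0.91 ± 0.52 (SE, adjusted p = 0.667).

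**Figure D3:**
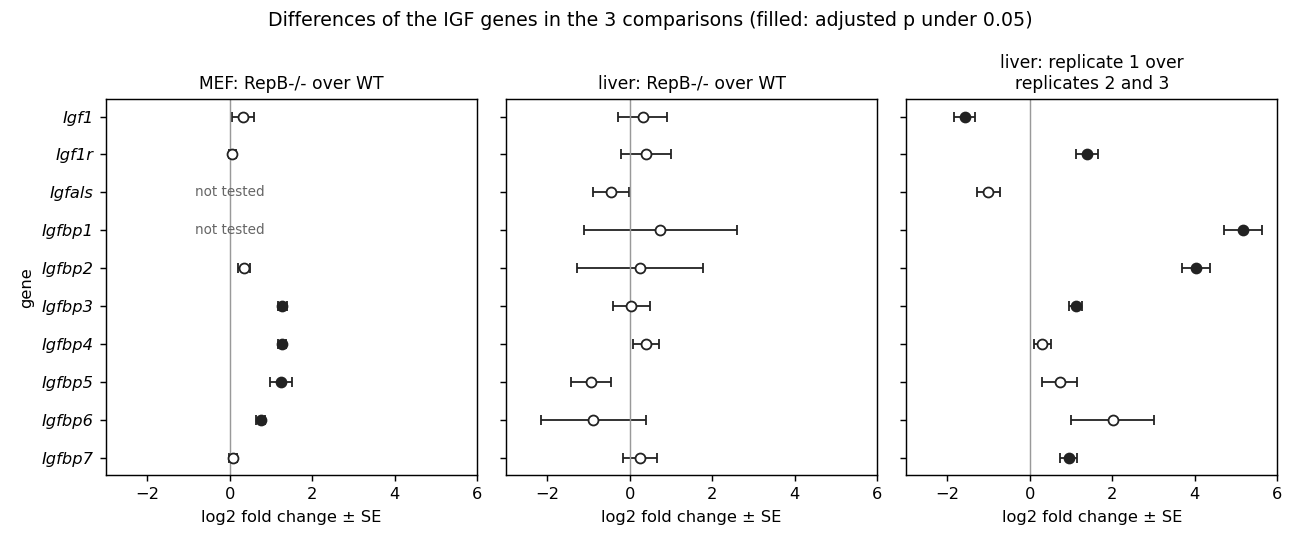
Log2 fold change with its SE for each member in the MEF genotype, liver genotype and liver replicate comparisons, filled where the adjusted p was under 0.05. In MEFs 4 members are filled, in the liver genotype comparison 0 with wide errors for Igfbp1 and Igfbp2, and in the replicate comparison 6, of which Igf1 is the one below 0.

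The make-up of the binding protein mRNA in liver followed the same numbers. The sum of *Igfbp1* to *Igfbp7* was 7520 and 6616 TPM in RepB-/- and WT replicate 1 and 911 to 1554 TPM in the other 4. *Igfbp2* made up 45.8% to 50.3% of it in replicate 1 and 10.3% to 20.8% in the others, and *Igfbp1* 27.0% to 33.4% and 2.20% to 9.65%. *Igfbp4* made up 15.3% to 16.4% in replicate 1 and 60.3% to 69.4% in the others. Set against *Igf1* in the same library, the sum was 39.5 and 44.0 times the *Igf1* level in replicate 1 and 1.41 to 2.66 times in the others. In replicate 1 the order by TPM was *Igfbp2*, *Igfbp1*, *Igfbp4*, *Igfbp7* and *Igf1*, with no overlap between neighbours. *Igfals* and *Igfbp3* came next and overlapped, at 104 to 112 and 104 to 109 TPM. In the other 4 livers *Igfbp4* (613 to 937 TPM) and *Igf1* (568 to 645 TPM) overlapped at the top, followed by *Igfals* (95.5 to 257 TPM) and *Igfbp2* (108 to 253 TPM), which overlapped too. *Igfbp5*, *Igfbp6* and *Igf1r* were under 10 TPM in all 6 livers.

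**Figure D4:**
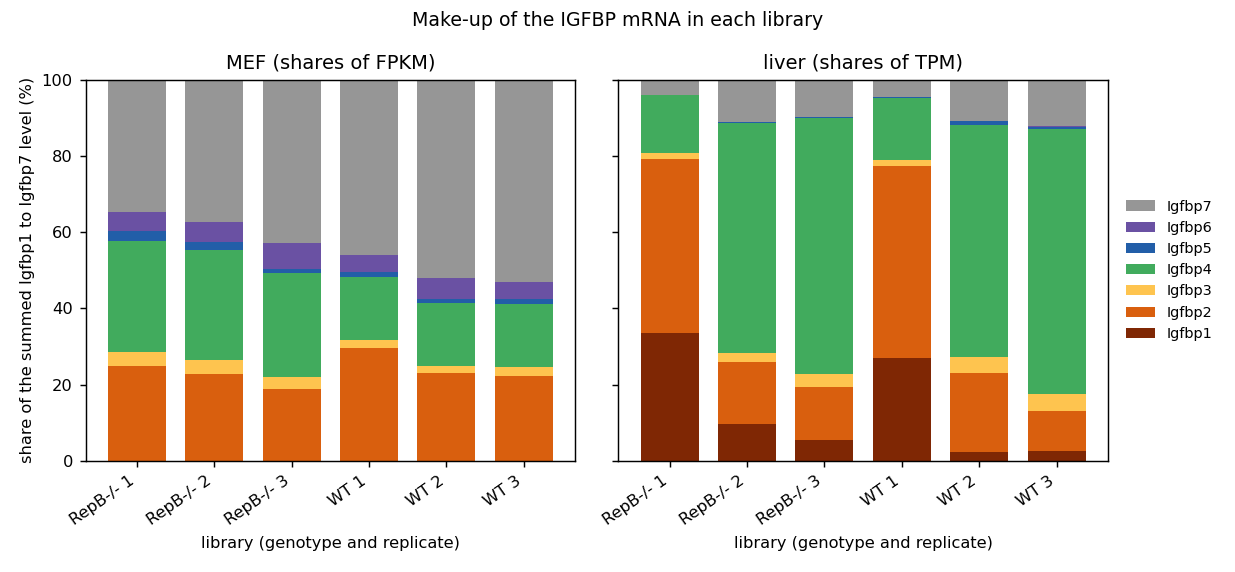
Share of the summed Igfbp1 to Igfbp7 level (per cent) taken by each gene in every library, from FPKM in MEFs and TPM in liver. Igfbp4 takes 27.2% to 29.2% in RepB-/- and 16.6% to 16.7% in WT MEFs, and in liver Igfbp1 and Igfbp2 fill most of both replicate 1 bars.

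Of the 68 pathway genes, 55 were tested in the replicate comparison, with 11 higher and 6 lower in replicate 1, beside the 8.76% higher and 6.82% lower among all genes tested. *Igf2*, the fetal ligand, was at 1496 and 772 CPM in RepB-/- and WT replicate 1 and at 0.803 to 1.45 CPM in the other 4 (log2 fold change 10.02 ± 0.32 SE, adjusted p = 2.45e-04). Also higher were the leptin receptor gene *Lepr* (5.73), *Grb10*, which encodes an imprinted inhibitor of insulin and IGF1 receptors (3.75), *Igf2bp3* (3.46) and the matrix protease gene *Mmp2* (3.01). *Ghr*, the growth hormone receptor gene, was lower, at 238 and 160 CPM against 335 to 432 CPM (log2 fold change -0.97 ± 0.20 SE, adjusted p = 0.0260). The lower genes were led by *Htra4* (-2.37) and *Prlr* (-1.88), followed by *Ghr* and the forkhead factor gene *Foxo4* (-0.87). *Igf2r* (0.50, adjusted p = 0.0604) and *Insr* (-0.33, adjusted p = 0.226) did not pass the test. Between genotypes, 0 of the 53 pathway genes tested in liver were called by edgeR, 0 had an unadjusted p under 0.05, and DESeq2 called 0 of 54.

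**Figure D5:**
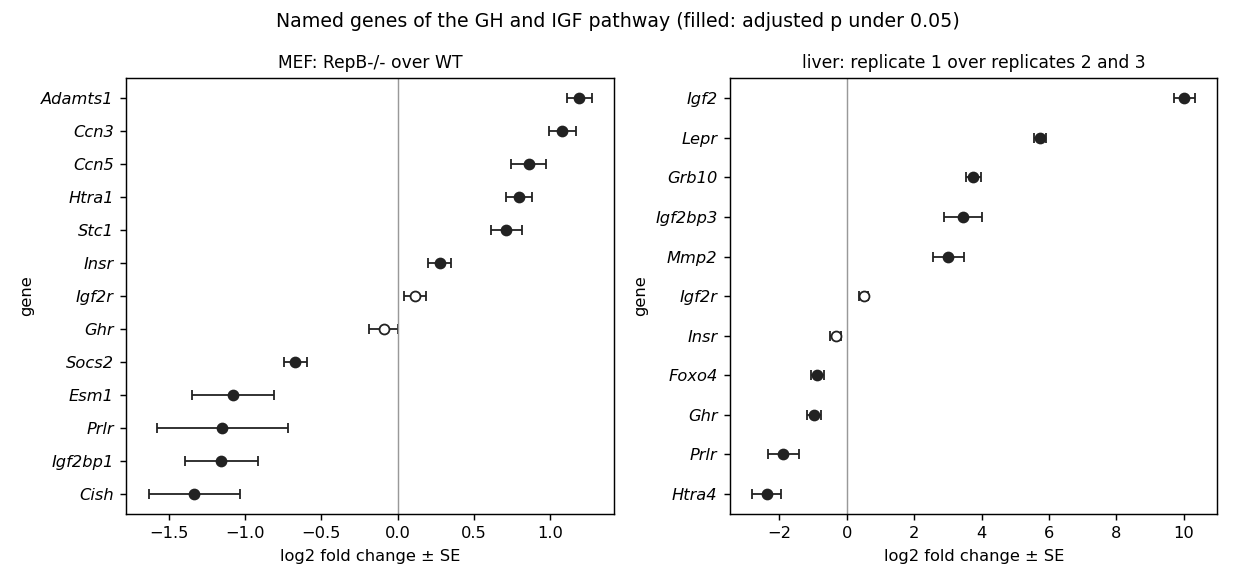
Log2 fold change with its SE for the named pathway genes in the MEF genotype comparison (left) and the liver replicate comparison (right), filled where the adjusted p was under 0.05. Igf2 at 10.02 is farthest from 0 on the right, and Adamts1 (1.19) and Cish (-1.34) are at the ends on the left, where the axis is narrower.

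The genes closest to *Igf1* were sought by the root mean square difference of centred log2 CPM over the 6 libraries of a material, among genes with a mean of at least 5 CPM. In liver, of 9997 genes compared, *Ebp* differed by 0.0860, *Zbtb20* by 0.129 and 9030617O03Rik by 0.144, against an SD of *Igf1* itself of 0.842. *Ebp*, which encodes a sterol isomerase, was at 131 and 75.2 CPM in RepB-/- and WT replicate 1 and at 249 to 306 CPM in the others. In MEFs, of 10302 genes, *Rusc1* (0.162), *Nudt16l1* (0.165) and *Col24a1* (0.170) came closest, against an SD of 0.409 over which *Igf1* had 39 to 102 counts per library.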

How the data were processed

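PolyA RNA of primary MEFs and liver was sequenced as paired ends. The submitters' processing notes name Trim Galore 0.4.1, STAR 2.7.0 and HTSeq 0.12.4, whereas the study's methods name Cutadapt and Hisat2, so which of them made these tables is not settled by the sources used here. The authors deposited unnormalized whole-number counts of reads on each gene, with FPKM for MEFs and TPM for liver, which were used only to compare levels between genes. The 6 other per-library liver columns (FPKM) and 51 MEF features without a symbol were left out of the tests. Brain libraries were not analysed here.

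Counts of each tissue were fitted by themselves in edgeR 4.0.16 (R 4.3.3) with TMM normalization, filterByExpr, a quasi-likelihood fit and Benjamini-Hochberg adjustment. Models held genotype, or genotype and replicate 1 in liver. The study itself used DESeq2, which was run as an alternative (DESeq2 1.42.0). The fit was also run on counts simulated from the means, depths and dispersion of each tissue, with some genes changed. For the liver genotype comparison these counts held no replicate 1 difference, and no result here rests on them. In liver, libraries of the same number correlated after genotype means were removed, at r = 0.71, 0.361 and 0.365 for numbers 1, 2 and 3, each over the limit of 0.1 set for pairing. RepB-/- replicate 2 with WT replicate 3 (0.406) and RepB-/- replicate 3 with WT replicate 2 (0.404) correlated as much, so that the data set replicate 1 apart and do not separate numbers 2 and 3. The labels state no pairing, and a replicate block changed no call of a liver member. The other alternatives were DESeq2 size factors, no filter, a mean normalized count of at least 40, a term for replicate 1 and leaving out each library. Replicates 2 and 3 of liver alone were added after seeing the data. MEF and liver values were never tested against each other, since the tables were made separately. Precision at low levels is limited by 3 counts, or 0.0599 to 0.0851 CPM in liver.

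Members and lists were chosen with earlier results of these data known. Named pathway genes were *Igf2*, *Igf2r*, *Insr*, *Ghr* and, per comparison, up to 5 called genes with the largest change in each direction, with at least 1 CPM in the higher group, of which 1 is not reported here. Genes like *Igf1* were the 3 nearest by root mean square difference, and markers were quoted to check the tissue or stage. Positions and windows are those of GRCm38, with sequences from RefSeq (GRCm38.p6), and all 10 members had a window. Figures were made with Python 3.11.15 and matplotlib 3.10.9.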

Additional observations from a re-analysis of the deposited data

Results flagged for a closer look

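*Igfbp5* lay on opposite sides of the WT mean in MEFs and in liver, although its genotype difference was called in MEFs and not in liver (log2 fold change -0.94 ± 0.48 SE, edgeR adjusted p = 1.00). Every RepB-/- library of MEFs lay above the WT mean, by 1.87, 1.29 and 0.254 on the log2 CPM scale for replicates 1, 2 and 3. Every RepB-/- library of liver lay below the WT mean of liver, at -0.0609, -1.67 and -1.73. RepB-/- replicate 1 of liver was almost at that mean, within the WT range, and above WT replicate 1. None of 14 alternatives called the gene in liver. The difference between MEFs and liver was not tested, because the tables were made separately. The share of all genes that lie on opposite sides of the WT mean in this way was not computed. Groups of 3 libraries were too small to look for a single outlying library.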

How the results depend on the processing

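Of 338 values of a member under an alternative, 318 kept their direction or stayed uncalled, 13 lost a call, 7 gained one and 0 reversed a call. In MEFs, *Igfbp3*, *Igfbp4*, *Igfbp5* and *Igfbp6* were called under all 11 alternatives, with adjusted p-values of at most 0.0249, and *Igfbp2* under 4. Those were no filter (adjusted p = 1.65e-04), the replicate block (0.0143), and leaving out RepB-/- replicate 3 or WT replicate 1. MEF libraries of the same number did not correlate (r = -0.011, -0.0416 and -0.00348), so they share only a number, and the replicate block gave 5006 calls over all genes against 5202. In liver the replicate block gave 8 calls between genotypes against 6 and called 0 members, and no other member call changed with it.

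Calls over all genes between liver genotypes numbered 80 with DESeq2, 0 with no filter, where 762 genes had an unadjusted p under 0.05, and 2 at a mean normalized count of at least 40. They numbered 3 with a term for replicate 1 and no RepB-/- replicate 2 library, 2 with replicates 2 and 3 only, and 0 to 4 when 1 library was left out, with 4 of these without WT replicate 1 and 0 without any other, where 265 to 785 genes had an unadjusted p under 0.05. In the liver replicate comparison, DESeq2 called 4137 genes against 2652, and leaving out 1 library gave 401 to 2711 calls over all genes, 2 to 7 members and 4 to 19 pathway genes. Pathway calls fell to 6 without RepB-/- replicate 1, 4 without WT replicate 1, 10 without WT replicate 2 and 8 without WT replicate 3. Fewer libraries enter those fits, and no other cause was tested. *Igfals* was called lower in replicate 1 with DESeq2 (adjusted p = 0.00496) and without RepB-/- replicate 3 (0.0354). Where 1 replicate 1 library was left out, the lone library is assumed to vary like the others. With 3 libraries a genotype and a variation of 51.2% in liver, smaller differences between liver genotypes cannot be told from none.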
